A study of Homo sapiens with 6 samples.

Results

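A set of 9 target genes of the transcription factor NRF2 that serve thioredoxin, quinone and NADPH metabolism were followed in PC3 cells given heme: NQO1, ME1, OSGIN1, TXNRD1, TXN, PRDX1, SRXN1, TRIM16 and TRIM16L. They were taken from a list of gene names, 9 of the 33514 gene symbols in the deposited tables, and all 9 were among the 16209 genes that passed the filter on low counts. PC3 cells are an established line that, per the labels, goes back to a human prostate tumour's spread to bone. RNA was sequenced from cells with no treatment and from cells that had 50 µM heme in the culture medium for 2 h or for 4 h, with 2 libraries in each of the 3 groups. No group carried a further agent or genetic change, and the labels describe no vehicle-treated control. They do not say either whether the replicates were separate cultures, so the p-values below rest on a spread among libraries that may be only technical.

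NRF2, encoded by NFE2L2, is held back in resting cells by KEAP1, which has it ubiquitinated and degraded. Oxidants and electrophiles release it, and it then pairs with small MAF proteins on antioxidant response elements of its target genes, where the heme-binding repressor BACH1 competes with it. Among those targets, thioredoxin reductase passes electrons from NADPH to thioredoxin, thioredoxin reduces peroxiredoxins that have consumed peroxide, and sulfiredoxin repairs peroxiredoxins that have been over-oxidised. NQO1 reduces quinones to hydroquinones without releasing radicals, and malic enzyme supplies NADPH.

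Reads counted to genes numbered 53129375 in the shallowest library and 55537611 in the deepest, and the 9 genes took between 0.160% and 0.190% of them. The first principal component of all tested genes held 58.0% of the variance and set the 2 h libraries, at 55.6 and 39.1, apart from the control and 4 h libraries, which lay between -27.0 and -19.2. HMOX1, the heme oxygenase gene induced by heme, lay at 10.4 and 11.4 CPM (the read count scaled to library size, with TMM factors) in the controls, at 451 and 328 after 2 h and at 382 and 341 after 4 h. Of 11 markers of PC3 and epithelial cells, KRT8 lay at 589 ± 9.91 CPM and KRT18 at 462 ± 24.99 in the controls (SD, n = 2). The keratins KRT5 (0.745 ± 0.0992) and KRT14 (0.274 ± 0.0324) were scarce there, and VIM lay at 17.7 ± 0.929. Of the luminal prostate markers, KLK2 had at most 1 read in any library, and KLK3 and FOLH1 had 0 throughout, where the limit for a count of 0 in the shallowest library is 0.0565 CPM. These 11 markers, among them also CD44, EGFR and LCN2, summed to between 5074 and 5581 CPM over all libraries. At 2 h 1 of the 11 was called higher and 1 lower. The 7 luminal markers summed to between 14.9 and 20.4 CPM, and TMPRSS2 was the 1 of 3 tested that was called higher at 2 h. Of 13 mitochondrially encoded mRNAs, a sign of RNA quality, 1 was called lower and 0 higher at 2 h. The 15 markers of blood, stroma and endothelium summed to between 89.96 and 95.5 CPM in the controls, between 120.3 and 142 after 2 h and between 91.3 and 94.2 after 4 h. In the controls CD68 (44.2 ± 2.05 CPM), COL1A1 (27.6 ± 1.99) and PECAM1 (19.95 ± 0.203) were the highest of them (SD, n = 2). COL1A1, PECAM1 and CD14 were the 3 called higher at 2 h, and CD68 was not called. HBB, HBA1 and HBA2 had 0 reads in every library and PTPRC had at most 5. Their part in the changes below was not tested.

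Promoter activity was not measured, and 4 promoter windows are shown as sequence background. They were picked by the test results: OSGIN1 and TRIM16, which rose at 2 h, TXN, which fell, and ME1, which passed in no comparison. RefSeq promoter windows (GRCh38.p14, from 250 bases before the annotated start to 50 after it) were matched for 7 of the 9 genes, 8 windows in all since TXNRD1 has a pair of starts. They were searched on both strands for the core letters of the antioxidant response element, TGACNNNGC, and for the AP-1 letters, TGACTCA, which can lie inside the former. The windows shown lie at chr16:83952990-83953289 (plus strand, OSGIN1), chr6:83431002-83431301 (minus strand, ME1), chr17:15682902-15683201 (minus strand, TRIM16) and chr9:110256458-110256757 (minus strand, TXN). Each is written 5′ to 3′ along the gene, with the matches in capitals.
OSGIN1: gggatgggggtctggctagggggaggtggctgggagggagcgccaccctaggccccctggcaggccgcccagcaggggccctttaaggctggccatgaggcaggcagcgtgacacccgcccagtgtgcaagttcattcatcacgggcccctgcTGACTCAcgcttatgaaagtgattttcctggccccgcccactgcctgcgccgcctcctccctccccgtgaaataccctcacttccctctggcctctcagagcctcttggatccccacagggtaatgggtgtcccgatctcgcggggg
ME1: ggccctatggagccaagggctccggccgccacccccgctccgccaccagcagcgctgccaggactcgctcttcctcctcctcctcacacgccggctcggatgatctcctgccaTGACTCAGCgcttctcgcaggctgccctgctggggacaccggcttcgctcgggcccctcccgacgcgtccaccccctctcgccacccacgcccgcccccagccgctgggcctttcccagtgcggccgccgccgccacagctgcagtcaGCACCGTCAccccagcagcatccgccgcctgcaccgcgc
TRIM16: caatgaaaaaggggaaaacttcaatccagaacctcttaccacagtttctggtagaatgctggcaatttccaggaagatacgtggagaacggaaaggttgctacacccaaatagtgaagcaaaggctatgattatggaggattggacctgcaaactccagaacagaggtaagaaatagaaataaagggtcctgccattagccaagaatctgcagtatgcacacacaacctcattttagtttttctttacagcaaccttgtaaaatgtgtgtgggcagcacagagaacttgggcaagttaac
TXN: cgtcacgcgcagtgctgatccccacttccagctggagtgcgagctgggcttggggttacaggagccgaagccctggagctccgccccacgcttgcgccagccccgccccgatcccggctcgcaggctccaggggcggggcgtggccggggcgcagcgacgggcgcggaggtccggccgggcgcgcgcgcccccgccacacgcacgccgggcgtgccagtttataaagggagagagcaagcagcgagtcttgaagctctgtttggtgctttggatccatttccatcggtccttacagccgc

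ME1 held TGACTCAGC, where both motifs overlap, from 137 to 129 bases before its start, and a further response element core on the opposite strand. OSGIN1 held TGACTCA from 97 to 91 bases before its start and no response element core. The upstream window of TXNRD1, at chr12:104215529-104215828, held 2 cores, of which TGACTTCGC lay from 99 to 91 bases before the start, and its downstream window held 1. The windows of NQO1, SRXN1, TRIM16 and TXN held neither set of letters. So 3 of the 8 windows held the response element core, that of ME1 and both of TXNRD1, which thus counts more than once. Among all 35116 RefSeq windows of that length 13.3% held it. The AP-1 letters were in 2 of the 8, against 4.95%. These shares were not tested, and letters more than 250 bases before a start were not searched. A match describes letters in a window and is not a binding site. The windows of OSGIN1, TRIM16 and NQO1 lie wholly inside the span that GENCODE gives for each gene. OSGIN1 begins there at 83948282 on chromosome 16, and TRIM16, on the minus strand, at 15684311 on chromosome 17. Starts further upstream were not searched for these genes, so a lack of matches holds for the windows alone.

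At 2 h, 5 of the 9 genes passed the test (the quasi-likelihood F test of edgeR, adjusted p under 0.05 over all tested genes, named called below). TRIM16L, OSGIN1 and TRIM16 rose, TXN and PRDX1 fell, and NQO1, TXNRD1, ME1 and SRXN1 did not pass. Among all tested genes 31.7% were called at 2 h, 15.9% higher and 15.8% lower. The median log2 fold change of the 9 genes was 0.07, beside 0.02 over all tested genes. At 4 h against control 0 of the 9 were called by edgeR, and 0 by DESeq2, where edgeR called 0.0308% of all tested genes, 0.0247% higher and 0.00617% lower. At an unadjusted p under 0.05 edgeR gave 5 of the 9 at 4 h, NQO1, TXNRD1, OSGIN1, TRIM16 and TRIM16L, all with higher values, where 3.6% of all tested genes lay under that mark, 1.93% with higher values. From 2 h to 4 h TXN and PRDX1 rose and TRIM16L fell, 3 of 9, where 28.1% of all tested genes were called, 14% higher and 14.1% lower. An unadjusted edgeR p under 0.05 was reached by 5 of the 9 at 2 h, 3 with higher values, against 42.6% of all tested genes and 21.7% with higher values, and by 7 of the 9 between 2 h and 4 h, 4 with higher values at 4 h, against 39.9% and 19.5%. The libraries of the 2 groups did not overlap for 6 of the 9 genes at 2 h, 6 at 4 h and 7 between 2 h and 4 h, where the same held for 67.8%, 34.4% and 62.3% of all tested genes. Both comparisons with the controls rest on the same 2 control libraries, and their results are therefore not independent. Likewise the 2 h libraries enter both the comparison with control and that between 2 h and 4 h, with opposite sign. A deviation of these libraries alone would therefore show as a move away and back. As RNA was taken from bulk cultures, fewer cells with a transcript and less of it per cell cannot be told apart.

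**Figure D1:**
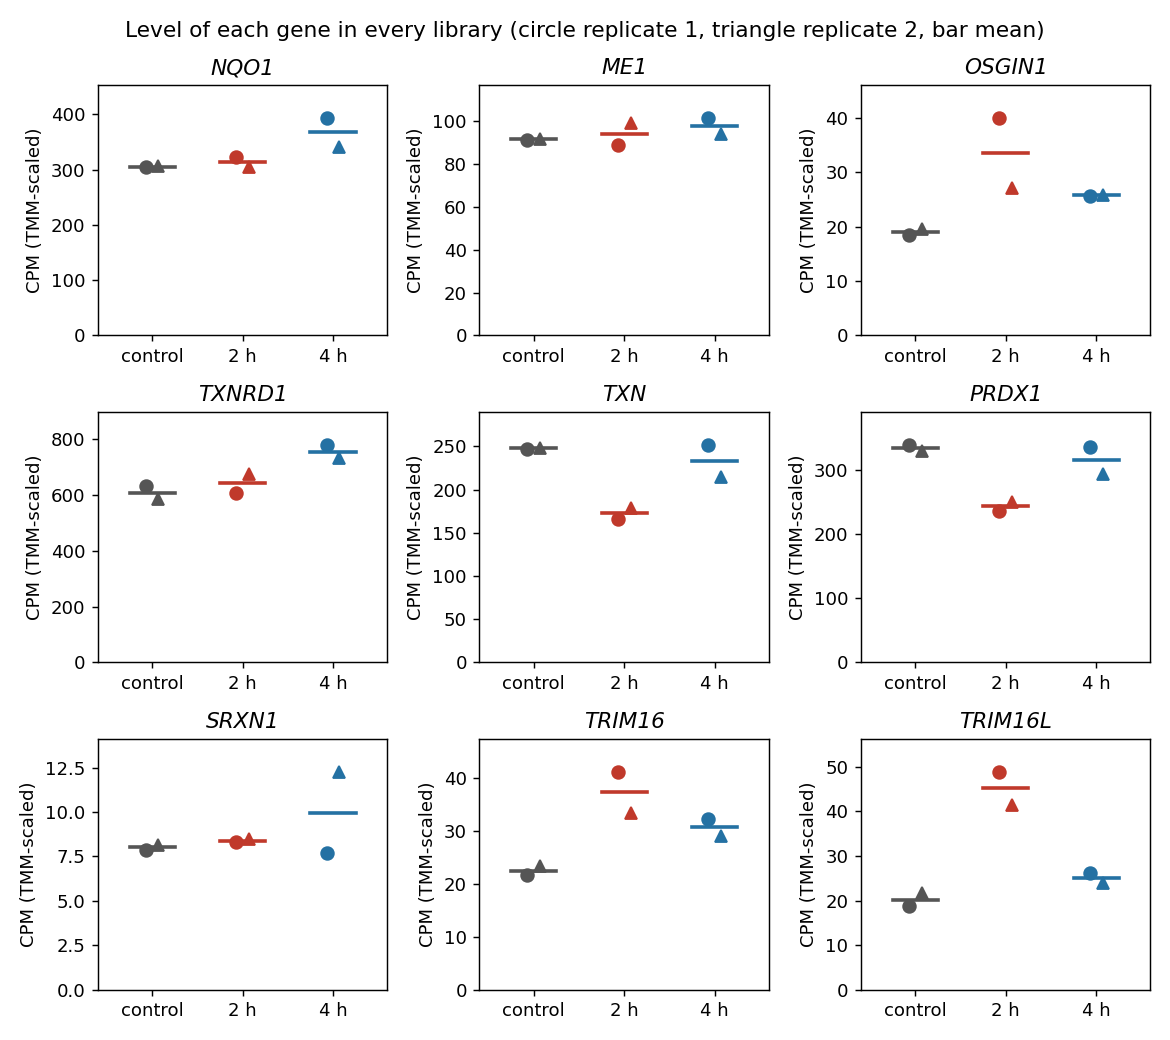
Level of each of the 9 genes in CPM (vertical axis, from 0) in the control, 2 h and 4 h libraries (horizontal axis), with 1 point per library and a bar at the group mean. OSGIN1, TRIM16 and TRIM16L have both 2 h libraries above both controls, TXN and PRDX1 have both 2 h libraries below them, and SRXN1 has a single 4 h library at 12.3 CPM away from the rest.

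NQO1, the quinone reductase, had 305 and 306 CPM in the controls, 323 and 304 after 2 h, and 394 and 341 after 4 h. The 2 h libraries lay around the controls, and both 4 h libraries lay above all others. NQO1 was not called at 2 h (log2 fold change 0.04, SE 0.10, 95% interval -0.17 to 0.24, edgeR adjusted p = 0.801). At 4 h its log2 fold change was 0.27 (95% interval 0.06 to 0.47, edgeR adjusted p = 1). From 2 h to 4 h the log2 value was 0.23 (SE 0.10, edgeR adjusted p = 0.0843), which was called without the filter on low counts (adjusted p = 0.0488) and without replicate 2 of the 4 h group (log2 0.36, adjusted p = 0.0304), in a range up to 1 over the alternatives. Without replicate 1 of the 4 h group it was log2 0.13 (edgeR adjusted p = 0.436), and the 4 h value against control was then log2 0.16 (edgeR adjusted p = 0.877). An exonic stretch of 575 of its 3254 bases overlaps an antisense gene on the other strand that had 0 reads in every library. NQO1 (ENSG00000181019.12) lies on chromosome 16 from 69706996 to 69726951 in GENCODE release 29 on GRCh38.

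ME1, cytosolic malic enzyme, which makes NADPH while it turns malate into pyruvate, passed the test in no comparison. Its levels were 91.5 and 91.8 CPM in the controls, 88.8 and 99.5 after 2 h, and 102 and 94.0 after 4 h. The 2 h libraries lay on either side of the controls, and both 4 h libraries lay above the controls. Its log2 fold change was 0.04 at 2 h (95% interval -0.18 to 0.25) and 0.09 at 4 h (-0.12 to 0.31). ME1 (ENSG00000065833.8) spans chromosome 6 from 83210389 to 83431071.

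OSGIN1, a growth inhibitor gene induced by oxidative stress, rose at 2 h and its 2 h replicates lay far apart. It had 18.5 and 19.6 CPM in the controls, 40.0 and 27.1 after 2 h, and 25.6 and 25.9 after 4 h. Every heme library lay above both controls, and the 2 h libraries differed from each other by more than the lower of them differed from the controls. The rise at 2 h was 1.76-fold (log2 0.82, SE 0.16, edgeR adjusted p = 0.00145). It was log2 0.50 without replicate 1 of the 2 h group and log2 1.05 without replicate 2, and it was called in both cases. At 4 h the log2 value was 0.43 (95% interval 0.10 to 0.77, edgeR adjusted p = 1). The difference between 4 h and 2 h was not called (log2 -0.38, SE 0.16, edgeR adjusted p = 0.0779), though it was with library totals alone (adjusted p = 0.0479), with upper quartile factors (adjusted p = 0.043) and without replicate 2 of the 2 h group (log2 -0.61, adjusted p = 0.00053), in a range up to 1 over all alternatives. Without replicate 1 of the 2 h group this difference was log2 -0.07 (edgeR adjusted p = 0.746), so its size rests on that library. OSGIN1 (ENSG00000140961.12) lies on chromosome 16 from 83948282 to 83966332.

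TXNRD1, cytosolic thioredoxin reductase, a selenoprotein, had the highest CPM of the 9. It stood at 630.0 and 585 CPM in the controls, 608 and 674 after 2 h, and 779 and 730.4 after 4 h. The 2 h values overlapped the controls, while both 4 h values lay above all 4 other libraries. At 2 h it was not called (log2 0.08, 95% interval -0.12 to 0.27). At 4 h the log2 fold change was 0.31 (95% interval 0.12 to 0.51, edgeR adjusted p = 1). Against 2 h the 4 h level was higher by log2 0.24 (SE 0.09, edgeR adjusted p = 0.0691). That last value was called by DESeq2 (adjusted p = 0.0403), without the filter on low counts (adjusted p = 0.0345) and without replicate 2 of the 2 h group (log2 0.34, adjusted p = 0.0149), in a range up to 1 over the alternatives. Without replicate 1 of the 2 h group it was log2 0.17 (edgeR adjusted p = 0.265). TXNRD1 (ENSG00000198431.15) runs on chromosome 12 from 104215779 to 104350305.

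TXN, the thioredoxin that this enzyme reduces, was lower at 2 h, when TXNRD1 was not called. Its levels were 247 and 248 CPM in the controls, 166 and 179 after 2 h, and 252 and 215 after 4 h. Both 2 h libraries lay below all others, and the 4 h libraries lay on either side of the controls. At 2 h TXN fell by 0.52 on the log2 scale (SE 0.10, edgeR adjusted p = 0.00145), to 1.43-fold below control. At 4 h it was not called against control (log2 -0.09, 95% interval -0.30 to 0.13). Its later rise, from 2 h to 4 h, was log2 0.43 (SE 0.10, edgeR adjusted p = 0.00504), a call that was lost without replicate 1 of the 4 h group (log2 0.32, adjusted p = 0.0721). TXN (ENSG00000136810.12) lies on chromosome 9 from 110243811 to 110256640.

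PRDX1, the abundant cytosolic peroxiredoxin that reduces hydrogen peroxide with electrons from thioredoxin, had a time course close to that of TXN. It had 339.6 and 329.6 CPM in the controls, 236 and 251 after 2 h, and 337 and 294 after 4 h. The 2 h libraries were the lowest 2 of the 6, as for TXN. Of the 4 h libraries, 1 lay within the range of the controls and 1 below it. PRDX1 fell at 2 h (log2 -0.46, SE 0.10, edgeR adjusted p = 0.00255) and rose from 2 h to 4 h (log2 0.37, SE 0.10, edgeR adjusted p = 0.00972). Without replicate 1 of the 4 h group the later rise was log2 0.28 and was not called (adjusted p = 0.102). Of its 1522 exonic bases, 379 overlap exons of MMACHC on the opposite strand, which had between 894 and 1012 reads per library against at least 13385 for PRDX1. PRDX1 (ENSG00000117450.13) lies on chromosome 1 from 45511036 to 45523047.

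SRXN1, sulfiredoxin, which returns over-oxidised peroxiredoxin to use, had few counted reads. They numbered 408 and 441 in the controls, 473 and 487 after 2 h, and 397 and 665 after 4 h, or 7.87, 8.17, 8.34, 8.46, 7.69 and 12.3 CPM in that order. Both 2 h libraries lay narrowly above the controls, and the 4 h libraries were the lowest and the highest of all 6. No comparison was called (log2 0.07 at 2 h, 95% interval -0.34 to 0.47, and log2 0.32 at 4 h, 95% interval -0.09 to 0.72). Without replicate 2 of the 4 h group the 4 h value was log2 -0.06, so its direction rests on that library. In GENCODE, 2292 of the 2698 exonic bases of SRXN1 (85.0%) also belong to exons of AL121758.1, a gene on the same strand with 0 to 4 reads per library, which leaves 406 bases of its own. The tables list between 4.23% and 4.48% of reads as ambiguous, and how reads in more than 1 gene were treated is not given in the sources used here. The few reads of AL121758.1 show that, given these gene models, shared reads were not counted to both genes. The counts of SRXN1 may therefore hold only part of its reads. SRXN1 (ENSG00000271303.1) lies on chromosome 20 from 646615 to 653370.

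TRIM16, a ubiquitin ligase of the TRIM family known for its part in autophagy of damaged membranes, and TRIM16L, a shorter paralog, both rose at 2 h. TRIM16 had 21.7 and 23.2 CPM in the controls, 41.1 and 33.4 after 2 h, and 32.2 and 29.004 after 4 h. TRIM16L had 18.8 and 21.6 CPM in the controls, 48.8 and 41.5 after 2 h, and 26.1 and 24.0 after 4 h. For both genes the 2 h libraries were the highest, the 4 h libraries came next, and no 2 groups overlapped. TRIM16 rose 1.66-fold at 2 h (log2 0.73, SE 0.13, edgeR adjusted p = 8.52e-04) and TRIM16L 2.24-fold (log2 1.16, SE 0.13, edgeR adjusted p = 2.76e-05). TRIM16L was the only one of the 9 still called at 2 h when a change beyond 1.5-fold was required by glmTreat (adjusted p = 0.00344, in a range from 7.87e-15 to that value over the alternatives).

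Between 2 h and 4 h TRIM16L fell by 0.85 on the log2 scale (SE 0.13, edgeR adjusted p = 2.56e-04; not called by glmTreat at 1.5-fold, adjusted p = 0.134, in a range from 4.80e-08 to that value), while the lower value of TRIM16 was not called (log2 -0.28, SE 0.13, edgeR adjusted p = 0.114). For TRIM16 that difference was log2 -0.12 (edgeR adjusted p = 0.537) without replicate 1 of the 2 h group and log2 -0.40, then called, without replicate 2 (edgeR adjusted p = 0.0165, in a range from 0.0025 to 1 over the alternatives). At 4 h against control the log2 values were 0.45 for TRIM16 (95% interval 0.17 to 0.72) and 0.31 for TRIM16L (95% interval 0.03 to 0.59), both with an edgeR adjusted p of 1. The count ratio of TRIM16L to TRIM16 was 0.866 and 0.931 in the controls, 1.19 and 1.24 after 2 h, and 0.812 and 0.826 after 4 h. Both 2 h ratios lay above all 4 others, so TRIM16L gained on its paralog at 2 h and not at 4 h. No test of this ratio was run. The 2 genes lie apart on chromosome 17, TRIM16 (ENSG00000221926.12) from 15627960 to 15684311 and TRIM16L (ENSG00000108448.21) from 18697998 to 18736118. Of the stretches of 50 bases in GENCODE transcripts of TRIM16L, 39.4% also occur in transcripts of TRIM16, so that reads of the pair can be exchanged and their separate values are uncertain. With their counts summed to a single feature the rise at 2 h was log2 0.95 (edgeR adjusted p = 5.96e-05) and the fall from 2 h to 4 h was log2 -0.57 (edgeR adjusted p = 0.0025).

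**Figure D2:**
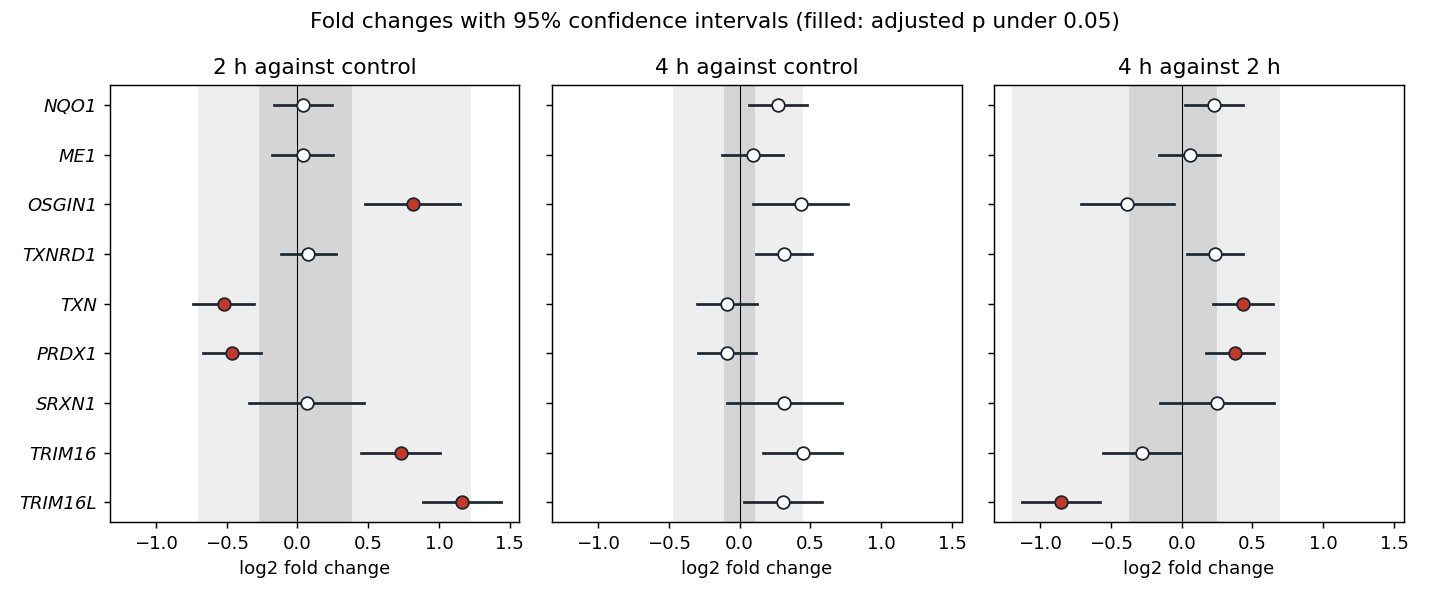
Log2 fold change (horizontal axis) of each gene in the 3 comparisons, with 95% confidence intervals from the edgeR fit of 6 libraries; filled points passed an adjusted p of 0.05. Dark and light grey bands span the middle 50% and 90% of all 16209 tested genes, and the 2 h panel shows TRIM16L, OSGIN1 and TRIM16 to the right and TXN and PRDX1 to the left of the dark band.

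Levels between genes were compared per kilobase of exon sequence (CPM per kb, GENCODE exon union). In the controls PRDX1 (219.9 ± 4.63) and TXN (217 ± 0.480; SD, n = 2) were highest and differed by less than the spread of PRDX1. NQO1 (93.8 ± 0.181) and TXNRD1 (90.5 ± 4.77) followed and likewise lay within the spread of the latter. ME1 came next at 27.2 ± 0.0676, and OSGIN1 (5.51 ± 0.227), TRIM16L (4.67 ± 0.470), TRIM16 (3.98 ± 0.195) and SRXN1 (2.97 ± 0.0794) were lowest. This order depends on the length used, since exons of other listed genes overlap 5 of the 9. Per kilobase of exon that no other listed gene overlaps, PRDX1 stood at 293 ± 6.16 against an unchanged 217 for TXN, and NQO1 at 114 ± 0.219 against 90.5 for TXNRD1, both apart by more than their spread. On the same scale SRXN1 stood at 19.8 ± 0.528, between ME1 and OSGIN1 (6.40 ± 0.263), and TRIM16 at 5.59 ± 0.274, above TRIM16L. How overlapping reads were counted decides which scale applies and is not stated in the sources used here. For SRXN1, the 0 to 4 reads per library of AL121758.1 show that shared reads were not counted to both genes, given the GENCODE models. Its value over all exon bases then includes length whose reads may be missing, so its place as lowest is uncertain. Over all exon bases, at 2 h PRDX1 (159.9 ± 6.83) and TXN (151 ± 7.81) were still the highest and TRIM16L (10.4 ± 1.20) was above OSGIN1 (9.70 ± 2.65) by less than their spread. The genes that fell at 2 h were thus the most abundant per kilobase, and those that rose were among the scarcest 4.

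Ratios of read counts within a library were set side by side for the enzyme and substrate pairs of the thioredoxin cycle. The count ratio of TXNRD1 to TXN was 2.55 and 2.36 in the controls, 3.66 and 3.77 after 2 h, and 3.09 and 3.40 after 4 h. All heme libraries lay above both controls, and of the 2 genes only TXN at 2 h had been called against control. The count ratio of SRXN1 to PRDX1 was 0.0232 and 0.0248 in the controls, 0.0353 and 0.0337 after 2 h, and 0.0229 and 0.0417 after 4 h, so that only the 2 h libraries were both above the controls. Neither ratio was tested.

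**Figure D3:**
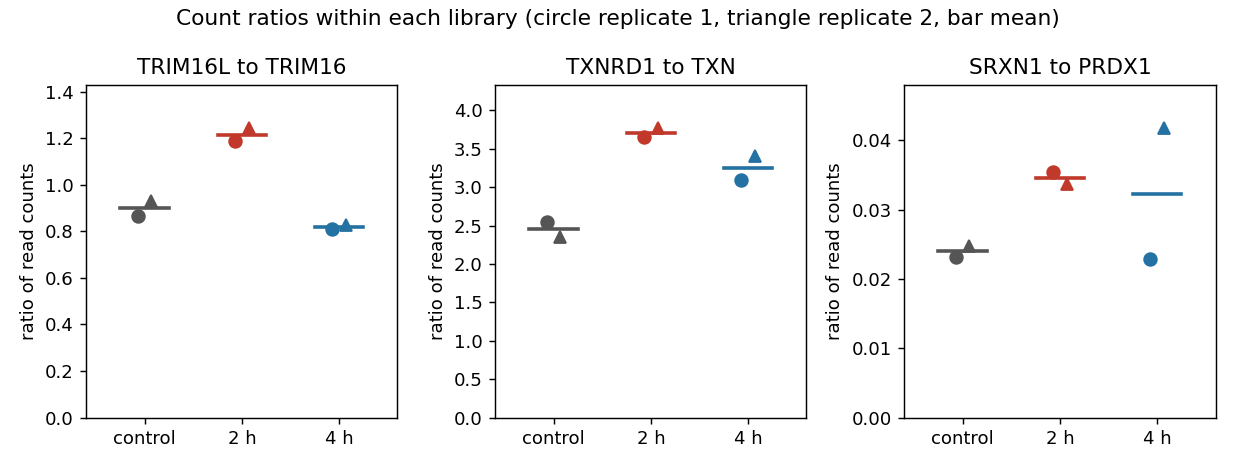
Ratio of read counts of a pair of genes within each library (vertical axes, from 0) in the control, 2 h and 4 h groups, with 1 point per library and a bar at the group mean. TRIM16L to TRIM16 is highest in the 2 h libraries, at 1.19 and 1.24, TXNRD1 to TXN is above control in all 4 heme libraries, and SRXN1 to PRDX1 is split at 4 h.

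The other thioredoxin, glutaredoxin and peroxiredoxin genes had 9 of 28 members lower and 3 higher at 2 h, with a median log2 fold change of -0.13. For this list and those below, the shares over all tested genes were 15.9% higher and 15.8% lower at 2 h. From 2 h to 4 h they were 14% higher and 14.1% lower. TXNIP, the inhibitor of thioredoxin (log2 -0.73, SE 0.10), RRM2, the ribonucleotide reductase subunit of an enzyme that thioredoxin reduces (log2 -0.92, SE 0.13), and NXN, nucleoredoxin (log2 -0.61, SE 0.14), had the smallest p-values among those that fell. The 3 that rose were MSRB1, a methionine sulfoxide reductase (log2 0.56, SE 0.13), and the sestrins SESN2 (log2 0.45, SE 0.16) and SESN3 (log2 1.64, SE 0.48). Of the other peroxiredoxins, picked out here after their values were seen, PRDX3 (log2 -0.35) and PRDX4 (log2 -0.34) fell with PRDX1, and PRDX2 (log2 -0.08), PRDX5 (log2 0.11) and PRDX6 (log2 -0.18) were not called. By 4 h, against 2 h, TXNIP (log2 0.48), NXN (log2 0.91), GLRX2 (log2 0.39), PRDX4 (log2 0.28) and RRM2 (log2 0.78) rose and MSRB1 fell by 0.49 on the log2 scale. At 4 h against control 0 of these 28 were called.

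Other quinone, aldehyde and carbonyl reductases had 1 of 22 members called higher at 2 h and 0 lower, with a median log2 fold change of 0.10. Over all tested genes 15.9% were called higher and 15.8% lower at 2 h. The riser was ALDH3A1, an aldehyde dehydrogenase (log2 0.83, SE 0.22, edgeR adjusted p = 0.0118). The aldo-keto reductases AKR1B10 (log2 0.40, SE 0.16) and AKR1C2 (log2 1.05, SE 0.44) had the next smallest p-values and were not called. Against 2 h, at 4 h CBR1 rose (log2 0.32) and CBR3 (log2 -0.52) and ALDH3A1 (log2 -0.69) fell. NQO2, the paralog of NQO1, was not called at 2 h (log2 0.28, SE 0.13, edgeR adjusted p = 0.12).

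Of 21 tested genes that produce NADPH or feed its production, 1 rose and 4 fell at 2 h (median log2 0.05). Over all tested genes 15.9% were called higher and 15.8% lower. H6PD, hexose-6-phosphate dehydrogenase of the endoplasmic reticulum, rose (log2 0.67, SE 0.10). The pentose phosphate genes RPIA (log2 -0.61, SE 0.11) and RPE (log2 -0.35, SE 0.11), the folate enzyme gene MTHFD2L (log2 -0.43) and NADK2, the mitochondrial NAD kinase (log2 -0.41), fell. The mitochondrial malic enzyme genes ME2 (log2 -0.09, SE 0.11) and ME3 (log2 0.00, SE 0.14) were not called at 2 h. Later, between 2 h and 4 h, RPIA rose (log2 0.62), and H6PD (log2 -0.54) and the folate enzyme gene MTHFD2 (log2 -0.34) fell.

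Among 15 regulators of the pathway, NFE2L2 itself had 84.6 ± 2.81 CPM in the controls, 72.8 ± 9.52 after 2 h and 86.0 ± 3.34 after 4 h (SD, n = 2) and was called in no comparison. At 2 h the small MAF genes MAFF (log2 0.79, SE 0.11) and MAFG (log2 0.56, SE 0.12), SQSTM1, whose product binds KEAP1 (log2 0.56, SE 0.10), GSK3B (log2 0.37, SE 0.09) and NFE2L1 (log2 0.33, SE 0.10) rose. CUL3 (log2 -0.34) and RBX1 (log2 -0.32), parts of the ligase that KEAP1 directs to NRF2, fell. That made 5 of 15 higher and 2 lower, where 15.9% of all tested genes were called higher and 15.8% lower. From 2 h to 4 h 5 regulators fell and 0 rose, and among those BACH1 (log2 -0.42, SE 0.12) had not been called at 2 h, beside MAFF (log2 -0.93), MAFG (log2 -0.33), SQSTM1 (log2 -0.31) and GSK3B (log2 -0.40).

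NRF2 targets of glutathione and heme metabolism had 9 of 22 members higher and 0 lower at 2 h, with a median log2 fold change of 0.28. Beside them stand 3 higher and 2 lower of the 9 genes above, and 15.9% higher and 15.8% lower of all tested genes. HMOX1 (log2 5.16, SE 0.16), GCLM, the regulatory subunit of glutathione synthesis (log2 0.56, SE 0.10), and SLC7A11, the cystine importer (log2 1.16, SE 0.14), had the smallest p-values. The time courses differed within that list too. GCLM rose further from 2 h to 4 h (log2 0.49, SE 0.10) and was called at 4 h against control (log2 1.05, SE 0.10, edgeR adjusted p = 1.6e-04), as was HMOX1 (log2 5.05, SE 0.15), whereas SLC7A11 fell from 2 h to 4 h (log2 -1.01, SE 0.14). These 2 were the called members at 4 h in any list described here, and NQO1 and TXNRD1 had log2 values of 0.27 and 0.31 at that time. Since the lists were chosen with earlier results of these libraries known, their counts are not independent evidence of a direction.

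Other TRIM genes were called in both directions. Of 34 tested, 6 rose and 7 fell at 2 h (median log2 -0.02), where 15.9% of all tested genes were called higher and 15.8% lower. TRIM59 (log2 -1.09, SE 0.14), TRIM69 (log2 0.86, SE 0.13) and TRIM47 (log2 -0.73, SE 0.12) had the smallest p-values. From 2 h to 4 h 9 rose and 5 fell, where 14% of all tested genes were called higher and 14.1% lower. The 5 that fell, TRIM2, TRIM25, TRIM38, TRIM56 and TRIM69, had all been called higher at 2 h. Both comparisons share the 2 h libraries, with opposite sign.

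**Figure D4:**
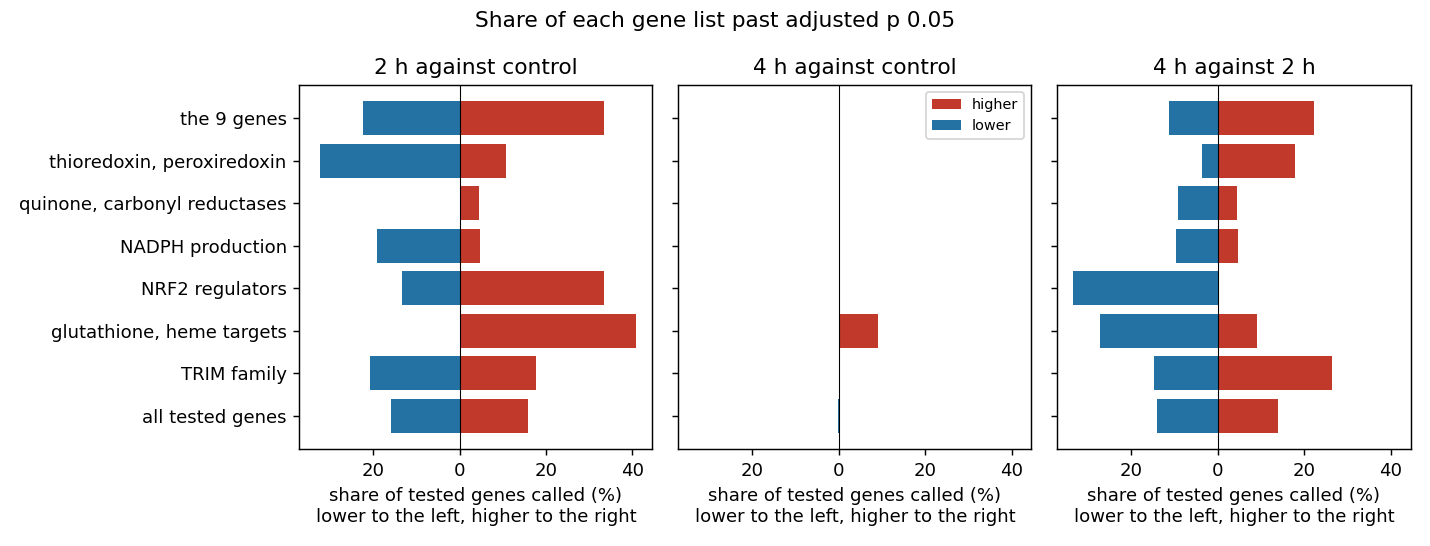
Share of tested genes called higher (to the right) or lower (to the left), in percent, for the 9 genes, the 6 lists of related genes and all 16209 tested genes, in each comparison. The 9 genes have calls in both directions at 2 h, the glutathione and heme targets only higher ones, and at 4 h against control calls are left for HMOX1 and GCLM of that list and for 0.0308% of all tested genes.

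Genes other than the 9 with the most similar time course were sought among 11922 genes with a mean of at least 2 CPM. Genes of the related lists were not left out. The measure was the distance between log2 CPM values over the 6 libraries, each gene centred on its control mean. Nearest to TXN were C1D (distance 0.0651), SELENOT (0.0674) and AIMP1 (0.0708). Nearest to PRDX1 were BZW2 (0.0453), TMCO1 (0.051) and SAR1A (0.0558). OSGIN1 was closest to ACE (0.122), HIST2H2BE (0.157) and SMIM1 (0.197), and TRIM16 to SMIM1 (0.164), PPARA (0.176) and SLC13A3 (0.236). TRIM16L was closest to SELPLG (0.193), NUAK2 (0.2) and RGL1 (0.219). The distances of the nearest genes were smaller for the pair that fell than for the 3 genes that rose. The genes that rose also had lower CPM, larger log2 fold changes at 2 h and a wider 2 h spread relative to the mean. How far these set the distances was not tested.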

How the data were processed

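RNA of PC3 cells was measured in 6 libraries, 2 per group, and the report uses the authors' deposited raw read counts per gene symbol, which end in 5 summary lines of the kind HTSeq writes. The hg38 build, STAR, Trimmomatic, deepTools and SAMtools are named, per the submitters' processing notes. The sources used here give no version, annotation or strand setting, so reads of overlapping, antisense and near-identical genes cannot be told apart. Libraries came from Trizol RNA and a TruSeq kit of Illumina, per the labels' protocols. The summary lines entered neither the library sizes nor the tests: reads in no gene made up between 5.48% and 6.88% of a library and ambiguous reads between 4.23% and 4.48%.

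Counts were tested in R 4.3.3 with edgeR 4.0.16: filterByExpr (minimum count 10), TMM, and the two-sided quasi-likelihood test of all 6 libraries in 1 fit by group (3 residual degrees of freedom; the coefficient of biological variation was 0.0982), with Benjamini-Hochberg adjustment over 16209 genes. Standard errors and 95% intervals were derived from each gene's fold change and F. Alternatives, whose effect the closing section gives, were DESeq2 1.42.0, its size factors, library totals, upper quartile factors, no filter, glmTreat at 1.5-fold, only the compared groups, a replicate block, TRIM16 and TRIM16L summed, and leaving out each library. No 2 replicates looked like 1 library deposited again, as their chi-square per gene lay between 8.78 and 33.9. Limits for a count of 0 are 3 counts and cover counting error only.

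The 9 genes and the lists of related genes were chosen with earlier results of these data known. Named in each list were the 3 genes with the smallest p and all called genes where at most 5 were called in a direction; similar genes were the 3 nearest to each called gene, on log2 CPM with a prior count of 2. All 9 symbols matched 1 gene of GENCODE release 29 (GRCh38), as did 33164 of the 33514 symbols; promoter sequences are those of RefSeq on GRCh38.p14.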

Additional observations from a re-analysis of the deposited data

Results flagged for a closer look

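The response at 4 h differed from that at 2 h by the edgeR test of the difference for 3 of the 9 genes: TXN (log2 0.43), PRDX1 (log2 0.37) and TRIM16L (log2 -0.85). All 3 had moved away from control at 2 h and moved back by 4 h, and the calls of TXN and PRDX1 were lost without replicate 1 of the 4 h group. The same 2 h libraries enter both comparisons with opposite sign. A deviation of these libraries alone would also show as a move away and back. No explanation was tested.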

How the results depend on the processing

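The counts of called genes among the 9 kept within 1.5 times at 2 h and stayed at 0 at 4 h against control under every alternative, except that with glmTreat at 1.5-fold 1 was higher and 0 lower at 2 h. From 2 h to 4 h, glmTreat left 0 higher and 0 lower, the fit without the filter gave 4 higher, and library totals and upper quartile factors each gave 2 lower; over fits that left out a library, from 0 to 3 were higher, with 0 without replicate 1 of the 4 h group, and from 1 to 3 lower, with 3 (TRIM16L, OSGIN1 and TRIM16) without replicate 2 of the 2 h group. Library totals and upper quartile factors moved the share of higher genes among all called at 2 h from 50.2% to 62.6% and 60.5%, and between 2 h and 4 h from 49.8% to 37.4% and 38.7%. Correlations of replicate deviations were -0.321 between control and 2 h, 0.291 between control and 4 h and -0.199 between 2 h and 4 h. With 2 libraries per group they cannot decide whether replicate numbers pair the libraries. The fit with the replicate block changed no call among the 9, with 3 higher and 2 lower at 2 h. Values that changed sign were uncalled in both fits. Leaving out a 2 h library moved the 2 h log2 value of NQO1 from -0.0098 (without replicate 1) to 0.0575, of TXNRD1 from -0.021 (without replicate 2) to 0.147 and of ME1 from -0.0676 (without replicate 2) to 0.114, and ME1 from 2 h to 4 h from -0.0196 (without replicate 1) to 0.164. Leaving out a 4 h library moved the 4 h value of SRXN1 from -0.0562 (without replicate 2) to 0.612, of TXN from -0.206 to 0.0288 (without replicate 2) and of PRDX1 from -0.187 to 0.0128 (without replicate 2), and SRXN1 from 2 h to 4 h from -0.102 (without replicate 2) to 0.551. ME1 from 2 h to 4 h was also -0.0108 with library totals and -0.0035 with upper quartile factors. The cause was not tested. Fewer calls with glmTreat follow from its stricter hypothesis.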
